A study of Mus musculus with 2 samples.

Results

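RIKEN clone transcripts are mouse RNAs that were still known on this array only by the code of a cDNA clone ending in "Rik". The rule took each such name whose array record was not a RefSeq noncoding RNA (an NR_ accession) and left out chromosomes X and Y. It found 2352 probed transcript sites under 2030 names, out of 55676 sites and 34817 names on the array. Of the names, 664 were represented by a site with a curated RefSeq mRNA behind it (NM_ accession). Another 1000 were represented by a site that the array filed under a deposited clone sequence (AK accession). The remaining 366 were represented by other records such as predicted RefSeq models. The rule left out 746 Rik sites with NR_ records and 107 on X or Y.

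Total RNA came from regulatory T (Treg) cells sorted from 5-week-old mice, wild-type or Nr4a-TKO, and each genotype was hybridised once in Cy3. Treg cells, a kind of CD4 T cell, hold back immune responses. Nr4a1, Nr4a2 and Nr4a3 are orphan nuclear receptors induced by T cell receptor signals, and the series title concerns their part in a Treg expression program. The labels give neither the altered alleles, the sorting markers, the number of mice per sample nor their sex, and nothing describes a Cre driver or a treatment.

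RIKEN clones come from a large effort that sequenced full-length cDNAs from many mouse tissues and stages. Some of these clones later became protein-coding genes with ordinary symbols. Many others were copies of long noncoding RNAs, of unspliced stretches of larger genes, or of transcripts that no gene model took in. A clone record shows that an RNA of that sequence was once copied from the named tissue, and says little about which cells make it.

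The 2 arrays had no replicates, so no difference below has a test, a p-value or an error between mice. Signals are log2 values scaled to the array's own 75th percentile, and each difference is the array labelled Nr4a-TKO minus the wild-type array. "Higher" and "lower" refer to the array with that label throughout. The wild-type array had 36732 sites well above background (66.0%), the other had 35567 (63.9%), and no spot was saturated (0 on each). Foxp3, the factor that defines Treg cells, was 17.2-fold lower, Ikzf2 3.07-fold lower and Ctla4 2.29-fold lower, while Il2ra, Tnfrsf18 and the 6 T cell markers checked were all within 2-fold. Nr4a3 was 7.04-fold lower, but Nr4a1 differed by 0.06 on the log2 scale and Nr4a2 was 2.54-fold higher. A probe outside a deleted stretch cannot check the label, and the deleted stretch is not stated.

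The sequences the results turn on are shown first. The array's probes are 60 bases long and are written 5′ to 3′ as in the transcript. For AK clones, whose array records list no RefSeq transcript, the whole probe is given. Capitals mark an AATAAA or ATTAAA hexamer, the usual signal for cutting and polyadenylation. The first 5 clones were among the largest decreases of the AK class, and the last 3 were its largest increases.
C230096K16Rik: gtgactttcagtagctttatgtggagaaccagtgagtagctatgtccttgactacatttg
A130071D04Rik: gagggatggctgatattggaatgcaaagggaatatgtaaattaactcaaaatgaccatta
A930006K02Rik: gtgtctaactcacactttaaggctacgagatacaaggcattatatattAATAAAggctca
5830416P10Rik: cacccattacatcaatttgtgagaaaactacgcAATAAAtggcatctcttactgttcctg
4930556H04Rik: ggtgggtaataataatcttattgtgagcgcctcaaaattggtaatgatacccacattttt
9530082P21Rik: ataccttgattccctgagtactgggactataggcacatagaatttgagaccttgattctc
D930023I05Rik: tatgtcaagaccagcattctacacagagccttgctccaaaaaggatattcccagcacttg
4930488N15Rik: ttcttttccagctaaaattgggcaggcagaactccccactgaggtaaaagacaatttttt

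On mm9, the build of the array file, these probes lie at chr5:65196915-65196974 (+ strand, C230096K16Rik), chr1:140058514-140058573 (- strand, A130071D04Rik), chr16:91469535-91469594 (+ strand, A930006K02Rik) and chr19:53518504-53518563 (- strand, 5830416P10Rik). The others lie at chr12:100809499-100809558 (+ strand, 4930556H04Rik), chr17:23888115-23888174 (+ strand, 9530082P21Rik), chr11:20222426-20222485 (- strand, D930023I05Rik) and chr8:118118914-118118973 (+ strand, 4930488N15Rik). Of these 8 probes, those of A930006K02Rik and 5830416P10Rik held a hexamer. Exon and intron annotation on mm9 was not used here, so positions are given relative to the probes of other genes.

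For members with an NM_ record, the last 30 bases of the probe are shown for the leading decrease, the leading increase, the leading interferon-induced member and C9orf72.
D630039A03Rik: ctttaggaagtcacttctattccttcggta
9030619P08Rik: ctggaatgctaccagtgttttgatgtccca
I830012O16Rik: attttttctctacAATAAAtgacaactgcc
3110043O21Rik: ttgttatagaaaatgtaagctgtacagtga

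The probe of D630039A03Rik lies at chr4:57921443-57921502 (- strand) and that of 9030619P08Rik at chr15:75260421-75261818 (- strand), where it joins bases on either side of a genomic gap. The probe of I830012O16Rik lies at chr19:34687522-34687581 (+ strand) and that of 3110043O21Rik at chr4:35138619-35138678 (- strand). The hexamer of I830012O16Rik lies within the 30 bases shown.

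Clone transcripts were seen less often than ordinary genes. Well above background on both arrays were 428 of 664 NM_ backed names (64.5%), 501 of 1000 AK names (50.1%) and 164 of 366 others (44.8%), against 67.7% of all 33263 names off X and Y. Ordinary symbols with NM_ records reached 71.5%, Rik names with NR_ records 44.0%, predicted Gm and LOC names 55.1%, and AK clones filed under other names 55.1%. Neither array showed 412 of the AK names (41.2%) and 178 of the NM_ names (26.8%). A further 58 AK names (5.8%) were seen only on the wild-type array and 28 (2.8%) only on the other. For NM_ names these shares were 5.42% and 3.16%, and over all names 4.42% and 2.68%, so each class showed the imbalance of the whole array. In sorted bulk cells, fewer cells of a kind and less RNA per cell cannot be told apart.

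The classes lay on opposite sides of the array as a whole. NM_ backed names had a median difference of 0.14 (quartiles -0.07 and 0.36), and 293 of 428 (68.5%) were above 0. AK names had a median of -0.09 (quartiles -0.42 and 0.19), and 201 of 501 (40.1%) were above 0. All 22503 measured names had a median of 0.08, with 59.7% above 0, so the classes stood 0.06 above and 0.17 below that median, the latter written -0.17 as a difference. The gap between the class medians was 0.24. AK clones filed under other names, which are not members, had a median of -0.06, with 44.1% above 0.

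Past 2-fold, the classes differed mainly on the lower side. Over all names off X and Y, 3.16% of those measured were higher by 2-fold or more and 3.06% were lower by as much. Among the 1093 measured members 28 were higher (2.56%) and 55 lower (5.03%). AK clones supplied 35 of the lower names (6.99% of 501) and 9 of the higher names (1.8%). Members of neither class leaned the same way, with 10 of 164 lower (6.1%) and 4 higher. So did AK clones under other names (4.89% lower) and Rik names with NR_ records (4.86%). NM_ backed names gave 15 higher (3.5%) and 10 lower (2.34%), close to the share of all names in both directions. Centring on the spike-in controls moved the median of all names to -0.15 and gave 15 higher and 88 lower members. Under that scaling the NM_ and AK medians were -0.09 and -0.32. Their distances from the median of all names, 0.06 and -0.17, could not change, since the scaling shifts every difference by the same amount.

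**Figure D1:**
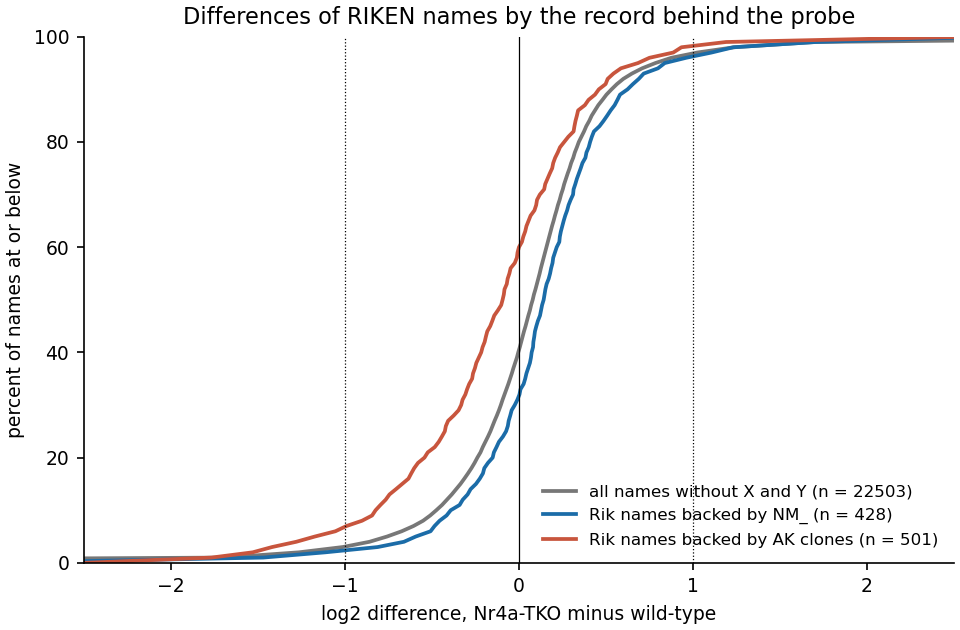
Cumulative share of names (percent) against the log2 difference between the 2 arrays, for names well above background on both. The AK curve (501 names) lies to the left of the curve of all names (22503) and the NM_ curve (428 names) to its right over most of the range; dotted lines mark 2-fold.

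The scatter of a difference changes with signal, with an SD over all names of 0.47, 0.72, 0.58 and 0.36 from the dimmest to the brightest quartile, so the shares were also read within those quartiles. In the third quartile 17 of 103 AK clones (16.5%) were at least 2-fold lower, against 3.96% of all names and 3 of 134 NM_ backed names (2.24%). In the lowest 2 quartiles the AK shares were 3.28% and 5.97%, beside 2.01% and 5.37% for all names. The AK medians from the lowest to the highest quartile were 0.01, -0.16, -0.34 and -0.20, and those of NM_ names 0.14, 0.11, 0.15 and 0.17. Of the 35 lower AK clones, 17 were in the third quartile, 12 in the second and 6 in the dimmest. The highest quartile held only 14 AK clones, of which 0 were lower and 1 higher.

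**Figure D2:**
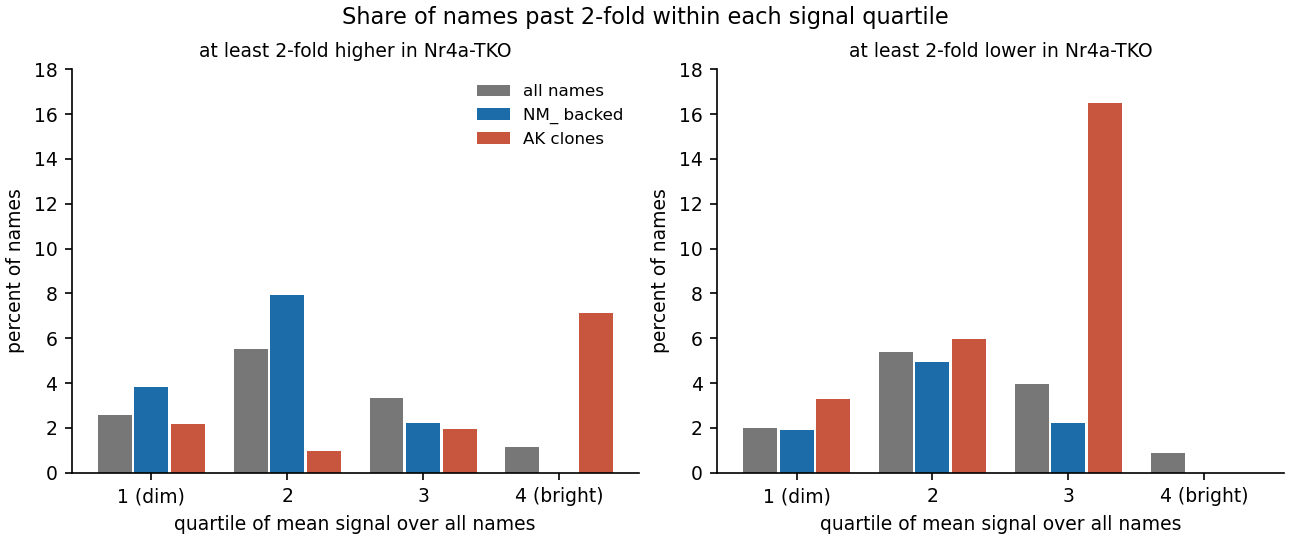
Percent of names at least 2-fold higher (left) or lower (right) on the array labelled Nr4a-TKO within each quartile of mean signal. AK clones reach 16.5% lower in the third quartile, against 3.96% of all names; the AK bar in the fourth quartile of the left panel is 1 of 14 clones.

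Position separated the AK clones further, in a comparison chosen after the values were seen. For each measured clone the next ordinary gene was taken in each direction along its own strand, by the place of the genes' probes, which usually lie near the 3′ end. Within 50 kb, the differences of 142 clones and their downstream genes had a Pearson correlation of 0.43 across clones. For the next gene upstream on that strand it was 0.17 over 133 pairs, and for upstream genes on the opposite strand 0.08 over 138 pairs. NM_ backed names gave 0.10 over 102 downstream pairs, and 0.19 over 171 pairs with downstream genes on the opposite strand. The points share both arrays, and a few share a flanking gene, so these values describe the clones and test nothing.

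The lower clones were counted in the same way. Of the 10 AK clones at least 2-fold lower with a downstream gene measured within 50 kb, 10 had a downstream gene with a negative difference, though only 2 of those genes were themselves at least 2-fold lower. The differences of those 10 genes ran from -0.03 (Slc44a1) to -2.04 (Klf3). Upstream within 50 kb only 3 lower clones had a measured gene, and 3 of those genes were negative. Within 100 kb the counts were 15 of 17 downstream and 5 of 7 upstream. On the opposite strand upstream within 100 kb they were 6 of 6, with a correlation of 0.20. The 4 clones at least 2-fold higher with a downstream gene within 50 kb had 4 positive genes there. The 5 with an upstream gene had 5. These counts are small, and 62.2% of all measured ordinary genes with NM_ records were above 0, against 40.1% of AK clones. Where the flanking gene was at -0.5 or under, the clone was negative in 8 of 9 downstream pairs and 11 of 11 upstream pairs. The signs of clone and gene were thus not particular to the downstream side. Over all pairs within 50 kb, whatever their size, clone and gene had the same sign in 72 of 133 upstream (54.1%) and 84 of 142 downstream (59.2%). The median over the 142 downstream pairs was -0.16 for the clones and 0.08 for their downstream genes. Without the pairs in which both members were at least 2-fold lower the correlation was 0.33. Among clones above the median signal of measured probes it was 0.60 downstream and 0.32 upstream.

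**Figure D3:**
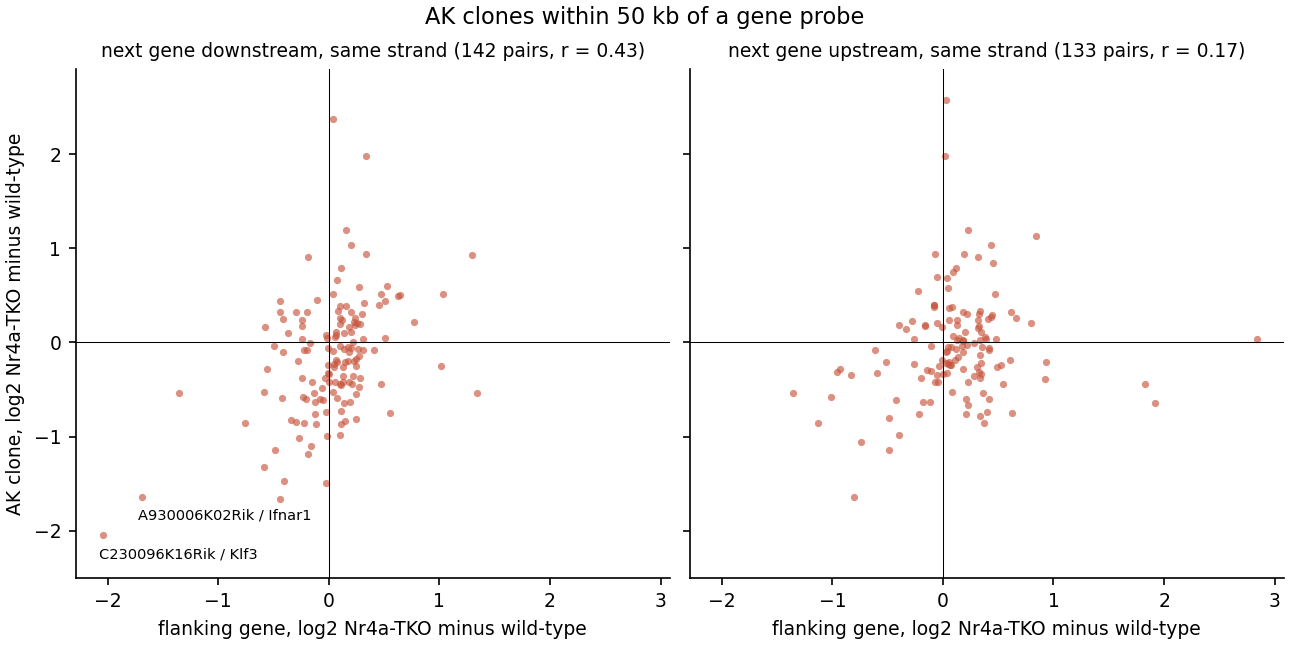
Log2 difference of AK clones (vertical) against that of the next ordinary gene on the same strand within 50 kb (horizontal), downstream on the left (142 pairs) and upstream on the right (133 pairs); each point is 1 clone. The downstream panel has r = 0.43 and the upstream panel 0.17, and the labelled clones C230096K16Rik and A930006K02Rik lie at the lower left with Klf3 and Ifnar1.

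C230096K16Rik, a clone from a neural library, read 2.54 (wild-type) and 0.49 (Nr4a-TKO), 4.14-fold lower. Its probe lies 24.4 kb upstream of the probe of Klf3, a zinc finger repressor linked to lymphocyte quiescence, on the same strand. Klf3 read 3.74 and 1.70, 4.12-fold lower. Clone and gene thus differed by nearly the same amount, -2.05 and -2.04 on the log2 scale.

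A930006K02Rik, 35.0 kb upstream of the probe of Ifnar1 on its strand, read 1.55 and -0.09, 3.12-fold lower. Ifnar1, a subunit of the type I interferon receptor, read 3.27 and 1.58, 3.23-fold lower. A130071D04Rik, cloned from neonatal thymus, read 2.40 and 0.41, 3.97-fold lower, 97.4 kb upstream of Ptprc. Ptprc encodes CD45, the phosphatase on all white blood cells, and read 5.56 and 4.3, 2.38-fold lower. These 3 clones were the ones within 100 kb whose downstream gene was also at least 2-fold lower.

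Other clones were lower beside genes that differed less. C230094B09Rik read 1.54 and -0.12 (3.16-fold lower), 31.5 kb from Rabgap1l, a regulator of Rab GTPases, whose difference was -0.44. 5830443J22Rik read 0.24 and -1.18 (2.67-fold lower), 66.1 kb from Tcf12, the E protein HEB of T cell development, whose difference was -0.30. 3300002A11Rik read 0.87 and -0.78 (3.13-fold lower), 165 kb from the forkhead gene Foxn3, at -0.90.

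A pair of clones lay on the strand of Dock10, an activator of small GTPases in lymphocytes, which read 4.3 and 3.69. Whether either clone belongs to Dock10 was not tested. A630081D01Rik, 179 kb away, read 2.82 and 1.39, 2.69-fold lower. F830005D05Rik, 50.5 kb away, read 1.40 and 0.23, 2.24-fold lower, while Dock10 itself was 1.52-fold lower. Further clones within 100 kb of a lymphocyte or signalling gene were picked after their values were seen. 5830419E12Rik lies near Grap2, an adaptor of T cell receptor signalling, and was 2.14-fold lower with Grap2 at -0.16. 4833421G17Rik lies near Dgkd, a diacylglycerol kinase, and was 2.08-fold lower with Dgkd at -0.69. 9930024M15Rik near the stress-induced Sesn1 and 1110035E04Rik near the NFAT family gene Nfat5 were 2.06-fold and 2.02-fold lower, with those genes at -0.43 and -0.27.

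For other lower clones the downstream gene was not clearly lower, or none was measured within 100 kb on their strand. 5830416P10Rik, now named Mirt1 and listed as a long noncoding RNA, read 0.47 and -1.99, 5.48-fold lower. The nearest downstream gene, the splicing factor Smndc1 at 64.5 kb, differed by 0.09. 4930556H04Rik, a testis clone, read -1.70 and -4.19, 5.64-fold lower, or a log2 difference of -1.34 with normexp background correction. E130215H24Rik read -0.59 and -2.51 (3.78-fold lower).

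A630038E17Rik, a neonatal thymus clone whose record predicts an immunoglobulin-like protein, read -0.87 and -2.64 (3.4-fold lower). 5031425F14Rik read -1.41 and -3.03 (3.08-fold lower, or -1.02 on the log2 scale with normexp). B230216N24Rik and 1700060J05Rik were 2.89-fold and 2.81-fold lower with dim signals. With normexp the differences of these last clones were -0.73 and -0.53, under 2-fold. Slc44a1, 12.6 kb downstream of 1700060J05Rik on its strand, differed by -0.03.

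Increases among AK clones were fewer, and several started near background. 9530082P21Rik, a noncoding transcript of chromosome 17, read -3.93 and -1.36, 5.94-fold higher, or a log2 difference of 1.59 with normexp. D930023I05Rik read -1.75 and 0.62, 5.18-fold higher, 19.8 kb from the amino acid transporter gene Slc1a4, which differed by 0.04. 4930488N15Rik read -4.51 and -2.24, 4.81-fold higher (a log2 difference of 1.23 with normexp), 109 kb from the probe of Maf on the other strand. Maf, a transcription factor of Th2 and Tfh cells, differed by 0.57.

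6720407P12Rik was 3.93-fold higher (-4.21 and -2.23, with a log2 difference of 1.14 under normexp) and 5430402O13Rik 3.09-fold higher (-4.46 and -2.83). Normexp correction brought 5430402O13Rik to 0.80 and 1700047K16Rik, 2.28-fold higher, to 0.45, both under 2-fold. F630201L12Rik, from a dendritic cell library, read -0.81 and 0.36, 2.25-fold higher, and C230098O21Rik read -0.11 and 1.02, 2.19-fold higher. 1700028B04Rik is listed as a transcribed pseudogene, and its record resembles a subunit of mitochondrial complex I. Whether its probe also reads the related gene was not tested. 1700028B04Rik read 5.83 and 6.87, 2.05-fold higher, and was the only AK clone past 2-fold in the highest signal quartile. The last 3 were under 2-fold when centred on the spike-ins, at 0.94, 0.90 and 0.81, and 1700028B04Rik also with normexp (0.98) and quantile scaling (0.85). Just under 2-fold stood D330022H12Rik, 6230415J03Rik and 5830403F22Rik, higher by 0.94, 0.94 and 0.93.

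**Figure D4:**
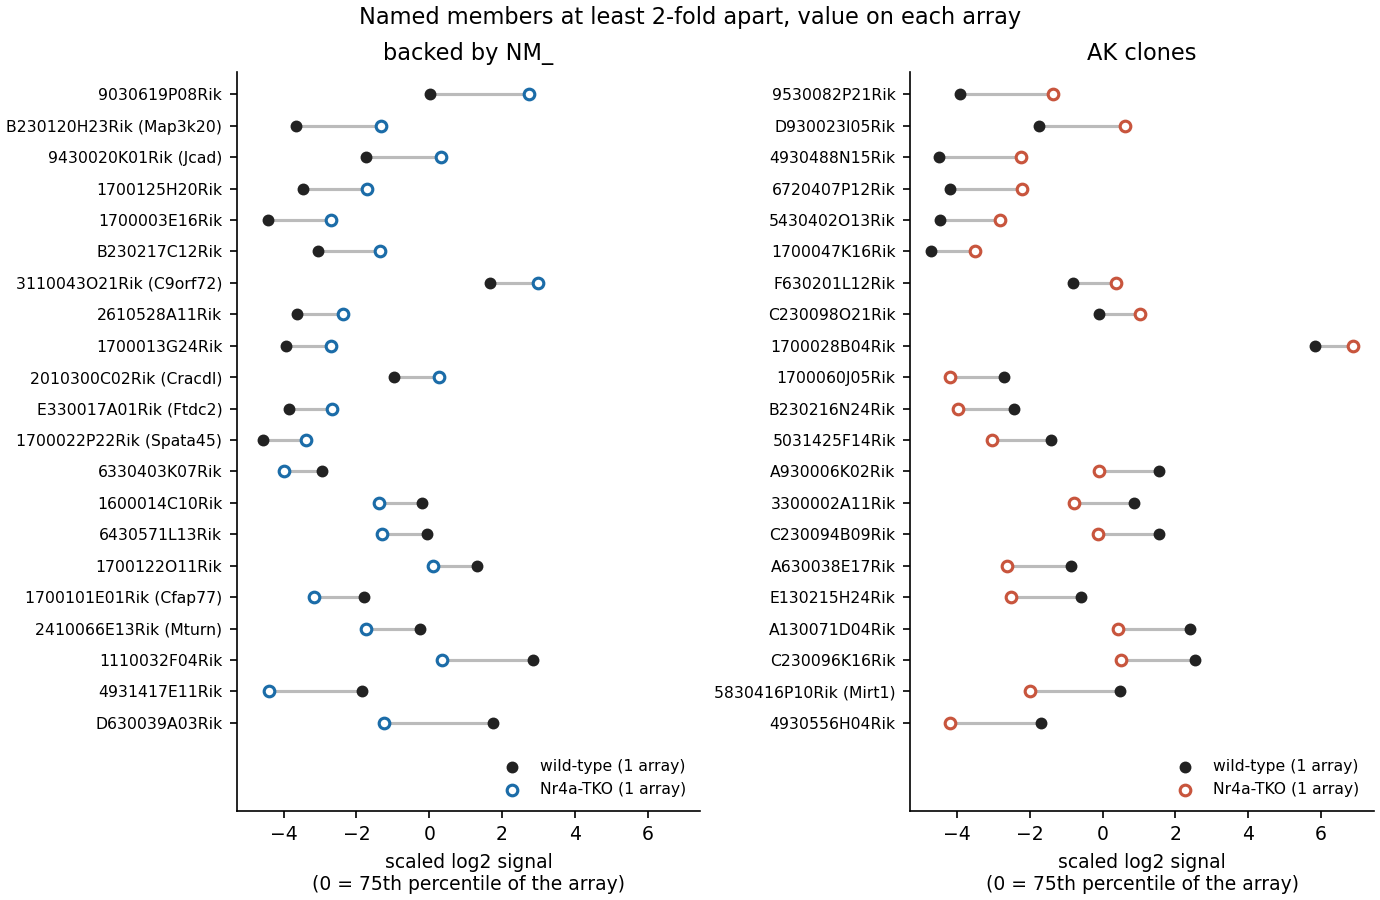
Scaled log2 signal on the wild-type array (filled) and on the array labelled Nr4a-TKO (open) for the 21 named NM_ backed members (left) and 21 AK clones (right) at least 2-fold apart; each row is 1 member and 1 probe. D630039A03Rik and 4930556H04Rik are the lowest rows and 9030619P08Rik and 9530082P21Rik the highest; rows are to be read for the distance within a row.

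Among NM_ backed members, D630039A03Rik had the largest decrease measured on both arrays. It read 1.75 and -1.24, 7.97-fold lower, and kept a difference of -2.78 with normexp. Akap2, 13.8 kb away on the other strand, encodes an anchoring protein for protein kinase A and differed by -0.61. 1110032F04Rik read 2.85 and 0.35, 5.65-fold lower, 20.5 kb from Ift80, a ciliary transport gene on the other strand that was 3.43-fold lower (4.10 and 2.32). 4931417E11Rik, a testis name, read -1.86 and -4.41, 5.84-fold lower, or -1.38 with normexp.

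The other lower NM_ names were closer to 2-fold. Mturn (2410066E13Rik), known from neural progenitors, was 2.84-fold lower, and its 2 probes differed by -1.5 and -1.11. Cfap77 (1700101E01Rik), a protein of the ciliary axoneme, was 2.59-fold lower (-1.80 and -3.17). 1700122O11Rik (1.32 and 0.09), 6430571L13Rik (-0.07 and -1.29), 1600014C10Rik (-0.21 and -1.37) and 6330403K07Rik (-2.94 and -4.0) were between 2.09-fold and 2.34-fold lower. The 2 measured probes of 1600014C10Rik differed by -1.17 and -0.31, with a mean of -0.74, under 2-fold. With normexp Cfap77, 6430571L13Rik, 1600014C10Rik and 6330403K07Rik were under 2-fold, at -0.85, -0.99, -0.92 and -0.38. Next in order, just under 2-fold, stood 1700011L22Rik, 1700019D03Rik and 1700123K08Rik at -0.98, -0.93 and -0.81.

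The largest increase of all measured members was that of 9030619P08Rik, which the RefSeq table lists as a transcribed pseudogene. The nearest ordinary gene, Ly6h of the Ly6 family of small surface proteins, lies 133 kb away and differed by 0.01. Other Ly6 genes of chromosome 15 were higher, picked after their values were seen. Ly6a2 (I830127L07Rik), a member of neither class, was 2.33-fold higher with dim signals (-4.53 and -3.32). Ly6c1, the nearest ordinary gene to Ly6a2, was 5.82-fold higher (4.06 and 6.60). Whether the probe of 9030619P08Rik shares signal with related genes was not tested. 9030619P08Rik read 0.03 and 2.73, 6.48-fold higher, and stayed between 2.47 and 2.70 on the log2 scale under every alternative run. Map3k20 (B230120H23Rik), a kinase of the stress-activated MAP kinase pathways, read -3.66 and -1.33, 5.02-fold higher, or a log2 difference of 1.54 with normexp. Jcad (9430020K01Rik), a junction protein of endothelial cells, read -1.73 and 0.33, 4.15-fold higher.

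C9orf72 (3110043O21Rik), whose human repeat expansion causes motor neuron disease and which acts in vesicle traffic and autophagy, had a clear signal on both arrays. It read 1.68 and 3.0, 2.49-fold higher, with differences of 1.09 to 1.32 across the alternatives. Its neighbour Ifnk, an interferon gene 37.4 kb away on the other strand, differed by 0.42. B230217C12Rik, 4.02 kb from the actin-binding gene Lasp1, read -3.05 and -1.35, 3.26-fold higher, while Lasp1 differed by -0.52.

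Most of the remaining increases were of dim names, with Cracdl (-0.96 and 0.26) the brightest of them. 1700125H20Rik was 3.39-fold higher by its stronger probe, but its 2 probes differed by 0.30 and 1.76, and normexp gave 1.13. 1700003E16Rik read -4.42 and -2.71, 3.27-fold higher. 2610528A11Rik, 1700013G24Rik, Cracdl (2010300C02Rik), Ftdc2 (E330017A01Rik) and Spata45 (1700022P22Rik) were between 2.26-fold and 2.40-fold higher. All but Cracdl among these 5 were under 2-fold with normexp, and so was 1700003E16Rik. Cracdl's difference was 0.72 as a mean of its 2 probes and 0.99 when centred on the spike-ins.

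Some names were well above background on 1 array only, which gives a lower bound. The bound sets the bright value against the higher of the dim array's weakest well-measured signal and the probe's own value. Ifit3b (I830012O16Rik), one of the interferon-induced IFIT proteins that bind foreign RNA, read -1.51 on the wild-type array and was not well above background on the other, at least 9.02-fold lower. Its neighbour on the same strand, Ifit3, was measured on both at -0.42 and -3.09, 6.33-fold lower. The closely related Ifit genes can share probe signal.

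Among AK clones 5930409G06Rik (-1.42 on the wild-type array) was at least 9.57-fold lower and C230034O21Rik (-1.70) at least 7.89-fold lower. C530014P21Rik, at -2.30 on the array labelled Nr4a-TKO, was at least 6.02-fold higher, E230029C05Rik at least 4.01-fold and 4930412L05Rik at least 3.93-fold higher. In the NM_ class Fyb2 (1700024P16Rik), a relative of the T cell adaptor ADAP, was at least 2.9-fold lower. 1700129C05Rik, the meiotic recombination gene Rec114 (2410076I21Rik) and 1700028K03Rik were at least 3.51-fold, 3.49-fold and 3.35-fold higher. Of 83 AK names with a bound, 7 were past 2-fold lower and 6 higher, and of 55 NM_ names 3 and 6. Over all names the counts were 210 and 249 of 2243.

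The tissue a clone came from went with how often it was seen. Of 84 AK clones from thymus, spleen and dendritic cell libraries, 62 (73.8%) were well above background on both arrays. The share was 59.9% for 237 clones from embryo or newborn libraries, 48.0% for 256 neural clones and 38.5% for 286 testis clones. For NM_ backed names the library was taken from the clone number, and embryo or newborn names reached 83.2% against 52.7% for testis names.

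Differences also varied with the library. Immune library clones had a median of -0.25, with 8 of 62 lower, 1 higher and 25.8% above 0. Testis clones had a median of 0.05, with 5 of 110 lower, 3 higher and 56.4% above 0. Neural clones (-0.19, 7 of 123 lower and 1 higher) and embryo or newborn clones (-0.08, 12 of 142 lower and 4 higher) lay between them in median. Of all measured AK clones 6.99% were lower and 1.8% higher, and of all names 3.06% and 3.16%. The counts per library are small. Within the immune group, 16 measured clones of 1 thymus library, from 16-day-old neonates, had a median of -0.51, and 17 of adult male thymus -0.22. Thymus libraries of 2-day-old and 3-day-old neonates had -0.45 (6 clones) and -0.10 (7 clones). Single libraries outside the group were as low, with -0.76 for 9 clones of embryo eyeball at 12 days. Whole embryos gave -0.57 at 10 and 11 days (10 clones) but 0.02 at 10 days (12 clones). NM_ backed names had medians above 0 in each group, at 0.04 for 14 immune names, 0.11 for 37 neural names, 0.14 for 136 testis names and 0.16 for 114 embryo or newborn names. The immune and then the neural group were lowest in both classes, but the NM_ medians lay close together. NM_ names with no library given, 19 measured, also had a median of 0.04.

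**Figure D5:**
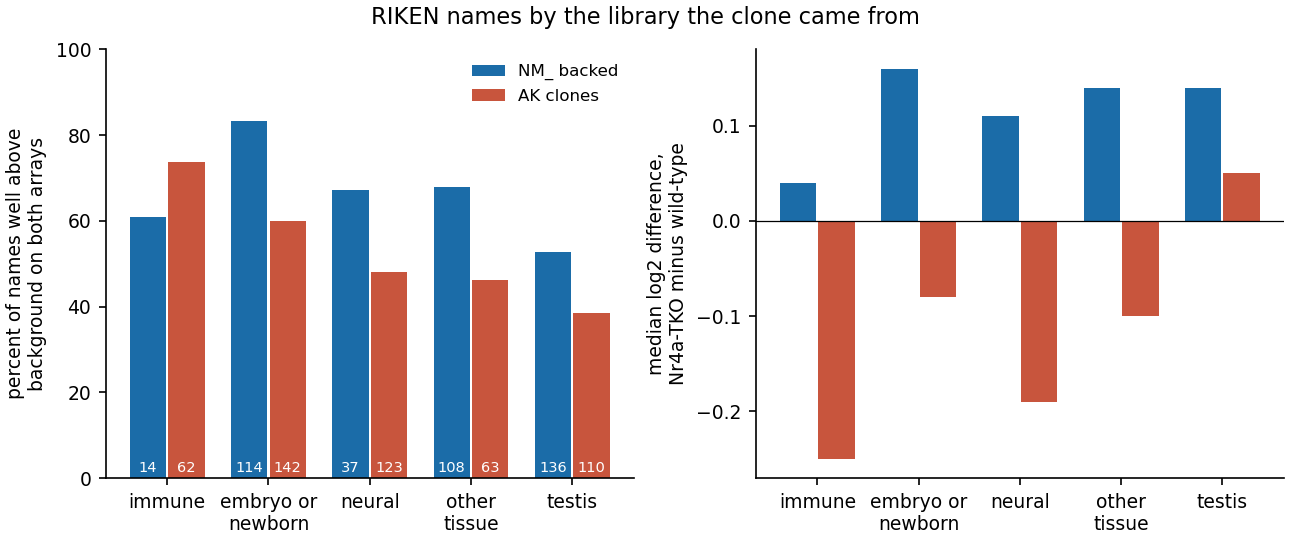
Percent of names well above background on both arrays (left) and median log2 difference (right) by the kind of library the clone came from; white numbers give the names measured. AK clones of immune libraries have the highest AK share (73.8%) and the lowest AK median (-0.25), and testis clones the lowest share (38.5%).

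Markers of the source tissues were checked beside these groups. Of 5 testis germ cell markers 4 were well above background on both arrays, and the log2 of the summed signal of the list was -1.07 (wild-type) and -1.27 (Nr4a-TKO). Of 4 neural markers 3 were measured so, with values of 5.39 and 5.56 that came mostly from Mbp. The B cell marker Ms4a1 was above background on neither array, while Cd79b was 2.51-fold higher, and the red cell genes Hba-a1 and Hbb-b1 were seen on the wild-type array only. The part of other cells in the members' differences was not tested.

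Of the 6 most strongly hybridising members of each class, 1700028B04Rik, described above, was past 2-fold, and the others were within 2-fold by their strongest probe. 2610028H24Rik read 8.86 and 8.92, and Pclaf (2810417H13Rik), a PCNA-binding protein of dividing cells, 6.77 and 6.86. The 2 measured probes of 2610028H24Rik differed by -0.29 and 0.05, and those of Pclaf by -0.64 and 0.09. The small positive differences of the stronger probes turned negative with quantile or spike-in scaling. They also did so with the mean of the probes of each name (-0.12 and -0.28). The same held with quantile and spike-in scaling for Atp5mpl (2010107E04Rik), a small subunit of ATP synthase (6.51 and 6.58). Rtraf (2700060E02Rik), an RNA-binding protein, read 6.45 and 6.73. Cfap74 (2010015L04Rik) read 7.28 and 6.79, and its measured probes differed by -1.30 and -0.48.

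A430078G23Rik, now Arhgef18, read 8.39 and 8.19 by its stronger probe, but its probes differed by -1.31 and -0.20. The probe filed under the symbol Arhgef18 itself, an exchange factor for small GTPases, lies 66.0 kb away and read 2.97 and 1.36, 3.07-fold lower. Among AK clones with strong signals, 3930401B19Rik, recorded as Y box protein 3, read 7.66 and 7.42, A830073O21Rik 5.66 and 5.60, and 4931402H11Rik 6.17 and 6.47. A530030E21Rik (5.26 and 5.05) and 2610319H10Rik (4.32 and 4.26) were also within 2-fold. The probe of A530030E21Rik holds a long run of the repeat ca. Whether the probes with the strongest signals also read other RNAs was not tested, so these levels may not be those of the named transcripts.

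NM_ backed names with immune clone numbers were also within 2-fold where measured on both arrays. Trav3-3 (A430107P09Rik), a variable segment of the T cell receptor alpha chain, read 0.84 and 0.24, and both its probes were lower (-0.76 and -0.59). A430033K04Rik read 0.81 and 1.25 with its 3 probes between 0.35 and 0.45, and Washc5 (E430025E21Rik), a subunit of the WASH complex of endosomes, read 4.09 and 4.46. 5830411N06Rik, also NM_ backed with an immune clone number, was seen only on the wild-type array, at -4.36, at least 1.21-fold lower. A530021J07Rik, a member of neither class, differed by -0.24.

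Members outside both classes held the largest decrease of all, chosen here after the values were seen. 5830444B04Rik, listed as a long noncoding RNA with a clone number of the immune libraries, read 0.53 and -3.78, 19.8-fold lower. Its probe lies at chr4:154782454-154782513 (- strand), 23.4 kb from Gabrd, a GABA receptor subunit gene on the same strand that was 2.3-fold lower (-2.0 and -3.2). C230072F16Rik read -0.78 and -3.39, 6.11-fold lower. Misp3 (2210011C24Rik) read -3.09 and -1.38, 3.27-fold higher.

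A name can carry both kinds of probe. Of 21 names with NM_ and AK probes, both were measured for 10, and the differences had the same sign for 6. The median distance between the probes' differences was 0.26, and the largest 1.51, for C130026I21Rik (0.69 by its NM_ probe and -0.82 by its AK probe). In 7 names the NM_ probe was measured and the AK probe was not, and the reverse was seen in 0. Over all members, 131 names had several measured sites. In 88 all sites went the same way, and the median gap between sites was 0.22. Member sites printed in 8 to 10 spots, of which 7 were measured, had a technical SD of 0.11 for a difference.

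The probes of the classes were not alike in sequence. The median GC content was 38.3% for AK probes and 43.3% for NM_ probes and for all names. A hexamer AATAAA or ATTAAA, read on the transcript strand, stood in 26.4% of AK probes, 18.1% of NM_ probes and 16.2% of all. A probe spanned a gap in the genome, as at a splice junction, in 0.601% of placed AK names, 6.51% of NM_ names and 3.25% of all names. Among measured AK clones the 198 with the lowest GC had a median of -0.14, with 19 lower and 2 higher, and the 155 with the highest had -0.07, with 7 lower and 3 higher. Among NM_ names 1 of 109 was lower at the lowest GC and 5 of 208 at the highest. Their part in the class difference was not tested.

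Many names have since changed. A RefSeq gene table of assembly GRCm38.p6 matched 661 of 664 NM_ names and gave an ordinary symbol to 319 of them, and 644 were protein-coding. It matched 422 of 1000 AK names, of which 366 were long noncoding RNAs and 371 still carried a Rik name. The 578 unmatched AK clones included 305 measured, with a median of -0.15, 23 lower and 6 higher. Matched AK clones that kept a Rik name had a median of -0.05 over 172 measured, with 10 lower and 3 higher. Unmatched clones made up 23 of the 35 lower AK clones and 305 of the 501 measured, shares that lie close together.

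Nr4a proteins bind the sequence AAAGGTCA as single molecules. It was searched on both strands in RefSeq promoter windows (GRCm38.p6), from 250 bases before to 50 after a gene's start. It stood in 495 of 32851 windows (1.51%) and, by gene, in 21 of the 1051 members with a window (2.0%) and 1.7% of all genes. By class it stood in 12 of 328 AK members (3.66%) and 7 of 538 NM_ members (1.3%). Among measured members it stood in 1 of 16 that were at least 2-fold higher, Spata45, and in 0 of 25 that were lower. A match is a run of letters and not a site of binding.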

How the data were processed

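Spot intensity values were what the authors deposited: Agilent Feature Extraction 10.10.1.1 wrote them on mm9, per the file headers, with detrending and surrogate values for dim spots. Both arrays lay on 1 slide. The deposited log2 table, used as an alternative, holds the same signals less 1 constant per array, chosen by an unknown rule. Without control and outlier spots, the log2 signal of each of 55676 probes was averaged and scaled to the 75th percentile of its array. The strongest probe stood for a name, which counted as measured if well above background on both arrays. With 1 array per genotype nothing was tested, and the number of arrays limits the precision.

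The members and lists were chosen with earlier results of these data known. For each class the text names the 12 largest differences per direction, only where all measured probes of the name went 1 way. It also names the 6 strongest signals, up to 4 members of immune libraries, and a few set names. The 5 largest bounds per direction were listed, but the text names only the largest of them. Others were picked after their values were seen. A clone-number prefix was given a library where at least 3 clone descriptions shared it in at least 80%. Counting was tested on simulated data. The tools were Python 3.11.15, scipy 1.17.1, numpy 2.4.6, pandas 2.3.3, matplotlib 3.10.9, limma 3.58.1 (normexp, offset 50) and R 4.3.3.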

Additional observations from a re-analysis of the deposited data

How the results depend on the processing

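Without replicates, the settings below are the only check of the counts, and the cause of each change was not tested. Counts are given as higher and lower at 2-fold or more, against 28 and 55 for all members, 15 and 10 for NM_ backed names and 9 and 35 for AK clones. With normexp they were 16 and 32 for all members, 9 and 6 for NM_ names, and 22 lower AK clones. Centred on 9 spike-in probes they were 15 and 88, 9 and 15 for NM_ names, which turns their balance, and 5 and 59 for AK clones; over all names the share of calls that were higher went from 50.8% to 29.7%. With only signals above -1.08 (the stricter filter, so fewer names) they were 10 and 30, 6 and 6, and 4 and 23. With no filter they were 125 and 156, 42 and 36, and 60 and 88. At 1.5-fold they were 89 and 137, 46 and 23, and 32 and 95, and at 3-fold 12 and 17, 6 and 4, and 5 and 10.

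The median of all members (0.03) became -0.02 when the 75th percentile was taken over well-measured probes, -0.20 with spike-in centring and 0.10 with no filter. The NM_ median (0.14) became 0.09, -0.09 and, with quantile scaling, 0.10. The AK median (-0.09) became -0.02 with normexp, -0.32 with spike-ins, -0.28 with the stricter filter and 0.04 with no filter. The gap of 0.24 between them was 0.14 with normexp, 0.43 with the stricter filter and 0.10 with no filter, and stayed positive under every setting run. Agilent's weaker detection call, positive and significant, gave measured shares of 81.0% of members, 86.4% of NM_ names and 78.8% of AK clones.

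Alternatives for library medians and flanking genes were chosen after seeing the data. With spike-ins and with the stricter filter the AK medians were -0.48 and -0.46 for immune (-0.25), -0.18 and 0.21 for testis, -0.42 and -0.32 for neural, and -0.31 and -0.22 for embryo or newborn clones. The flank correlations were 0.60 downstream and 0.32 upstream with the stricter filter, and 0.33 downstream without pairs in which both were at least 2-fold lower.

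Of 44 named members past 2-fold, 27 stayed past it under every alternative that gave a value. Differences near 0 changed sign for 2010107E04Rik (-0.16 with spike-ins, -0.11 with quantile scaling), 2610028H24Rik (-0.17, -0.09, and -0.12 as the mean of its probes) and 2810417H13Rik (-0.14, -0.11 and -0.28). The slide could not serve as a block with 1 array per genotype. No paired analysis was possible because each genotype had 1 array. Of the 17 other named members, each under 2-fold in some setting, 14 were so with normexp; they included dim and bright names.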
